A study of Homo sapiens with 32 samples.

Results

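Acetylation of histone H3 at lysine 27 (H3K27ac) was compared between SK-N-BE(2)C cells grown for 5 days in palbociclib plus retinoic acid (PB+RA) and cells grown for the same time in DMSO, the solvent of both agents. The comparison was chosen by treatment alone. It used 8 of the 32 samples of the series, 4 ChIP libraries of PB+RA and 4 of DMSO. All 92108 regions of the deposited comparison were described. SK-N-BE(2)C is an established neuroblastoma line, a clonal subline with amplified MYCN and of the adrenergic (sympathetic neuron-like) type. It is 1 line, so the replicates were cultures of 1 genotype. Palbociclib was used at 1 uM, per the labels and the study's methods. The other samples were 4 ChIP libraries each for PB and for RA, and 16 input libraries. Each region was placed by its distance to the nearest of 78577 protein-coding start sites, and 19896 regions within 3 kb of one were called start-site regions and 72196 were called distal. A further 16 regions lay on sequence names that the reference does not hold.

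H3K27ac is laid down by the acetyltransferases EP300 and CREBBP and marks active promoters and active enhancers, the distal elements that act on genes over long distances. Palbociclib inhibits CDK4 and CDK6, the kinases that phosphorylate RB and so free E2F factors to switch on the genes of S phase. Retinoic acid enters cells, binds retinoic acid receptors (RARs) that sit on DNA with RXR partners, and turns them from repressors into activators, and in neuroblastoma it is used to drive cells out of the cycle and towards neurons. Cells limit its action by degrading it through CYP26 enzymes and by turning its precursor back into retinol through DHRS3.

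Each region carries a concentration for PB+RA and for DMSO, the authors' normalised mean log2 read count of a group, and the concentration difference below is PB+RA minus DMSO on that log2 scale. The group means carry no error. The spread between libraries therefore came from the enrichment of each library's own broad peaks, which is the authors' fold over input. For each region and library the enrichment was averaged over the bases of the region, with bases under no peak set to 1. Log2 values were tested with limma in 82501 regions that had a peak in at least 2 of the 8 libraries, and the fitted difference and its SE below come from that test. Increased and decreased regions had a Benjamini-Hochberg adjusted p under 0.05 together with a concentration difference beyond 0.5 in the same direction. The read depth of the libraries is unknown, so no counting error can be given for a value, and a region without a peak need not lack the mark. The deposited normalisation cannot show a change in the total amount of H3K27ac.

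Promoters of 5 genes show the sequence at the start sites whose acetylation moved in opposite directions. They are RefSeq promoters (GRCh38.p14), 300 bases each on the strand of the gene, and each was found exactly 1 time in the hg19 genome of the deposited coordinates. CYP26A1 and RARB were chosen because they are members of the retinoid gene list, have a called start-site region and hold the letters of a DR5 element (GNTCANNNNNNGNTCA on either strand), the direct repeat to which RAR and RXR bind. The CYP26A1 promoter (chr10:93073643-93073942, plus strand) matched hg19 chr10:94833400-94833699, within a region whose concentration rose by 5.65. The RARB promoter (chr3:25428013-25428312, plus strand) matched hg19 chr3:25469504-25469803, within a region whose concentration rose by 3.27. The letters of the element are in capitals.
CYP26A1: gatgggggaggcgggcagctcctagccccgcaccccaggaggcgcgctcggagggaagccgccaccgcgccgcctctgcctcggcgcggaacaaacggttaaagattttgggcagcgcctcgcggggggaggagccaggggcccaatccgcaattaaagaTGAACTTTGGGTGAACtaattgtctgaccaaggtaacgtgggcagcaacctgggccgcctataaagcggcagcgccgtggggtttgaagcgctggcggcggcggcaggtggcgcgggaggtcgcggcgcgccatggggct
RARB: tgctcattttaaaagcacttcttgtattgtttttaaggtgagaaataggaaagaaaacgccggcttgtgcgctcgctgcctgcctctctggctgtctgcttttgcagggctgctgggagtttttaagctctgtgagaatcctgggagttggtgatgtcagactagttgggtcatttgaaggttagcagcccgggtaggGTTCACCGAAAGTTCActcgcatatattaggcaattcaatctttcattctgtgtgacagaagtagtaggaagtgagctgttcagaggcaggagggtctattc
E2F2, TYMS and GINS2 are shown because, of the cell cycle list, they had the largest start-site decreases among genes whose promoter holds the E2F letters (TTTNNCGC on either strand). E2F2 is itself an E2F factor, TYMS makes thymidylate for DNA synthesis, and GINS2 is a subunit of the replicative helicase. The E2F2 promoter (chr1:23531184-23531483, minus strand) matched hg19 chr1:23857676-23857975, the TYMS promoter (chr18:657403-657702, plus strand) matched the same positions in hg19, and the GINS2 promoter (chr16:85688905-85689204, minus strand) matched hg19 chr16:85722511-85722810. The concentration differences of their regions were -2.31, -1.96 and -1.95. Capitals mark each E2F match, and 2 of the 3 matches in E2F2 overlap on opposite strands.
E2F2: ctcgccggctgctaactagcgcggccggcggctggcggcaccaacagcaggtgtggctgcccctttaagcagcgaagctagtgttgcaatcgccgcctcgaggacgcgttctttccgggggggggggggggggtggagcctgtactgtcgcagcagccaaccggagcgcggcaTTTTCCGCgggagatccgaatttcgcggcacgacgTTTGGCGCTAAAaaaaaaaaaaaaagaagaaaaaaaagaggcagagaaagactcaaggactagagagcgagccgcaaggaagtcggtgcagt
TYMS: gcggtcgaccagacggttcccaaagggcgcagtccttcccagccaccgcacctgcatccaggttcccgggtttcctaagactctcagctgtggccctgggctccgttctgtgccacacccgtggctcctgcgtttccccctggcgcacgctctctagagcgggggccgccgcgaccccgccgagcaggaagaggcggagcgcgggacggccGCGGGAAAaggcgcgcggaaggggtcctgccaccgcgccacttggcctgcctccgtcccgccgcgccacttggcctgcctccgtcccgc
GINS2: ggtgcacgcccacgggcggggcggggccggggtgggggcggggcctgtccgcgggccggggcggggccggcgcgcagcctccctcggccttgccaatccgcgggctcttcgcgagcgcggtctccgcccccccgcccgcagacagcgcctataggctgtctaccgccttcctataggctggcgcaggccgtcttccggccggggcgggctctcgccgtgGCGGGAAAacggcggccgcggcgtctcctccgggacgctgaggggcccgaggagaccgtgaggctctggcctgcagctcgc

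Over 35116 RefSeq promoters, 0.729% held the DR5 letters and 6.89% held the E2F letters. Of 22 retinoid genes with a promoter in that table, 3 held DR5, which are CYP26A1, RARB and STRA6, the retinol transporter. The region at the STRA6 promoter (chr15:74460014-74616061) was far wider than those of CYP26A1 and RARB. It was not called and had a concentration difference of -0.09. That value covers the whole region, so it cannot show whether the promoter itself changed. Of 39 cell cycle genes, 19 held the E2F letters, and 13 of those 19 had a decreased start-site region. Of all 39, with or without the letters, 30 had a decreased start-site region. Across 11498 genes with a promoter and a tested start-site region, an increased start-site region was found for 14 of 100 genes with DR5 and for 9.42% of the others. For the E2F letters the share of genes with a decreased start-site region was 16.7% of 1418 genes and 16.8% of the others. A match describes the letters only.

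The peak lists were of similar size in both groups. DMSO libraries held 83693 ± 12951 broad peaks (SD, n = 4) and PB+RA libraries 89043 ± 11485 (exact permutation test, two-sided, p = 0.60), and 15 measures of the lists were compared in this way. The median GC content of distal peaks was the measure whose groups did not overlap. It was 51.0%, 50.7%, 48.3% and 49.5% in DMSO replicates 1 to 4 and 44.9%, 45.01%, 46.2% and 45.9% in PB+RA replicates 1 to 4, so each PB+RA library lay below each DMSO library. The exact p was 0.0286, the smallest that 4 against 4 libraries allow, and 0.321 after adjustment over the 15 measures. Start-site peaks held 36.2% ± 2.14 of all bases under peaks in DMSO and 32.9% ± 1.63 in PB+RA (exact p = 0.0571, adjusted 0.321). Peaks of 12 kb or wider numbered 650, 1019, 373 and 1073 in DMSO and 613, 299, 462 and 407 in PB+RA, which overlap (exact p = 0.143). Without DMSO replicate 3 the difference in their mean was -469 with an exact p of 0.0286. DMSO replicate 3 stood apart from its group, with 64516 peaks over 107 Mb and a median start-site enrichment of 9.71. Calls and measures of the peak lists that rest on it are given with and without it.

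**Figure D1:**
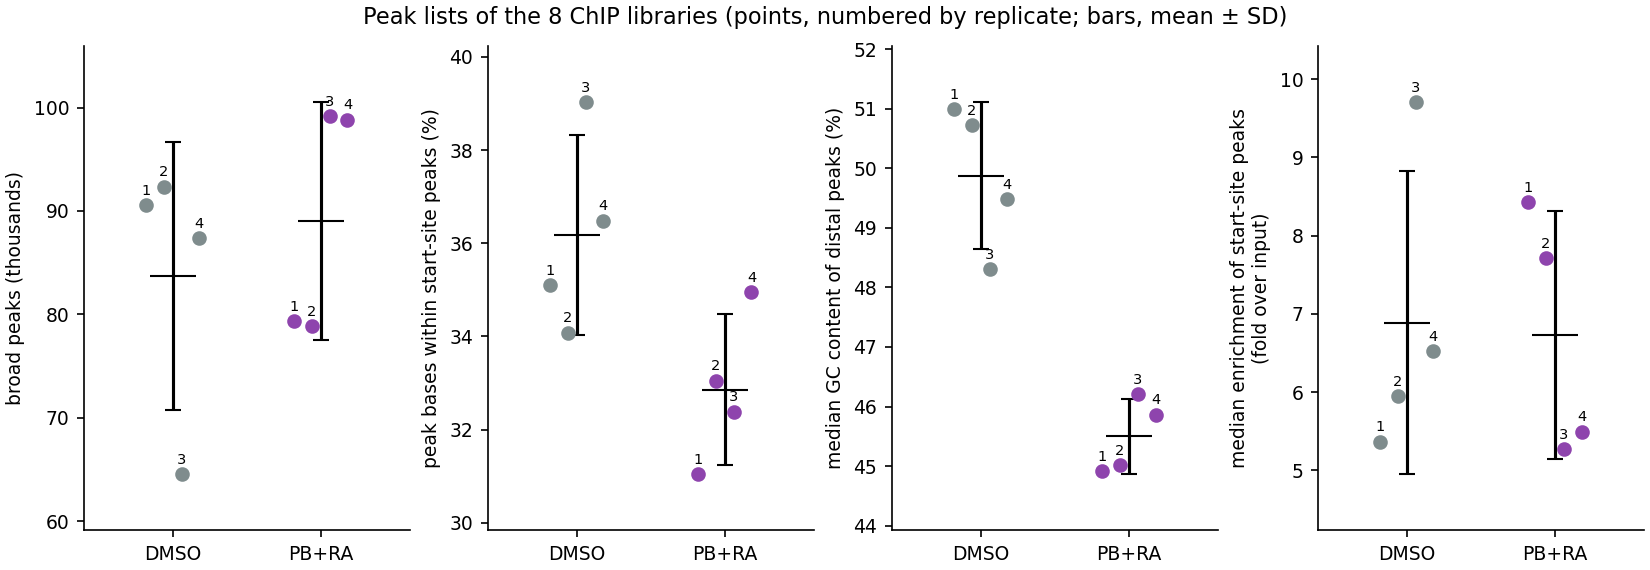
Peak lists of the 4 DMSO and 4 PB+RA libraries (points, numbered by replicate; bars, mean and SD), with the number of broad peaks, the share of peak bases in start-site peaks, the median GC content of distal peaks and the median enrichment of start-site peaks as fold over input. The groups overlap in each panel except the distal GC content, where PB+RA libraries lie between 44.9% and 46.2% and DMSO libraries between 48.3% and 51.0%.

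H3K27ac changed in both directions with PB+RA, with more increases than decreases in distal regions, which can lie inside genes, and more decreases than increases at start sites. Of 82501 regions tested, 14013 (17.0%) increased and 8731 (10.6%) decreased, and the median concentration difference was 1.46 among the former and -1.25 among the latter. Of the increased regions, 4608 had a peak in 4 and 808 in 3 PB+RA libraries, with none in DMSO. Of the decreased regions, 848 had a peak in 4 and 523 in 3 DMSO libraries, with none in PB+RA. In such regions the group without peaks has the set value of 1 and no spread. They passed the filter through the other group alone. At start sites 1489 of 18895 regions (7.88%) increased and 2698 (14.3%) decreased. Among distal regions 12520 of 63590 (19.7%) increased and 6031 (9.48%) decreased. Increases therefore made up 35.6% of start-site calls and 67.5% of distal calls. The median concentration difference was -0.22 over all start-site regions and 0.09 over all distal regions. Regions are not replicates, so this contrast between the classes is a description without a test.

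The counts moved with the libraries and with the peaks used. Without DMSO replicate 3, 13374 regions increased and 11345 decreased, and without PB+RA replicate 1 the counts were 10731 and 5394. Decreased start-site regions numbered 1594 without PB+RA replicate 1, and decreased distal regions 3799, 3866 and 3879 without PB+RA replicate 1, DMSO replicate 2 and PB+RA replicate 2. With the highest peak of a region in place of its mean, 8634 regions increased and 3834 decreased. In the 29485 regions with a peak in all 8 libraries, 4423 increased and 4689 decreased, a share of increases of 48.5% against 61.6% in all regions tested. In that set increases made up 29.7% of start-site calls and 57.3% of distal calls.

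The share of increased regions climbed with distance. It was 6.80% where the region covered a start site, 11.7% from 1 base to 3 kb, 13.7% from 3 to 10 kb, 17.5% from 10 to 50 kb, 21.5% from 50 to 100 kb and 25.4% beyond 100 kb. The decreased share ran the other way, from 15.4% of regions that covered a start site to 8.04% beyond 100 kb. The median concentration difference went from -0.20 to 0.35 between these ends. Among increased regions without a DMSO peak, 4359 distal and 248 start-site ones had a peak in 4 PB+RA libraries, and 762 and 46 in 3. Among decreased regions without a PB+RA peak, 765 distal and 83 start-site ones had a peak in 4 DMSO libraries, and 439 and 84 in 3. Such regions passed the filter through 1 group alone, and the shares by distance without them are not given here. In the start-site class, regions over 12 kb wide decreased most often by width (26.7% of those tested, with 9.13% increased). Distal regions of that width moved about equally often either way, at 25.5% decreased and 25.3% increased.

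**Figure D2:**
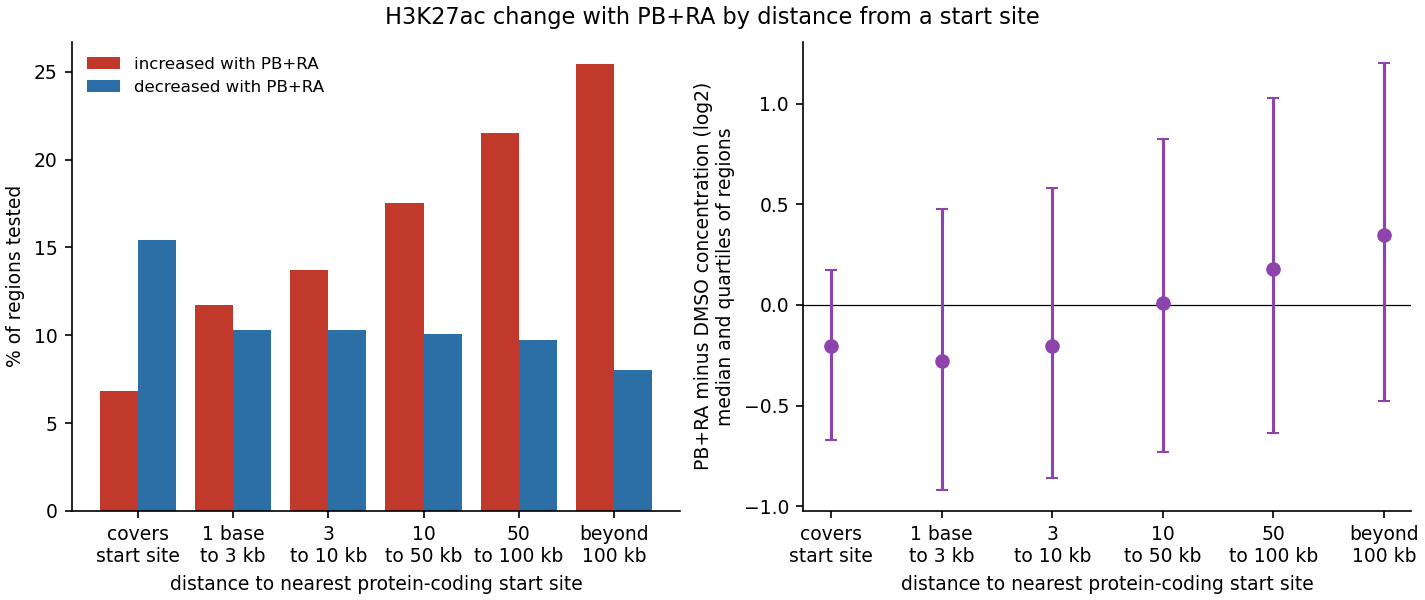
Left, share of the regions tested that were called increased (red) or decreased (blue) in PB+RA, by distance to the nearest protein-coding start site. Right, median and quartiles of the concentration difference (PB+RA minus DMSO, log2) of all regions in the same classes; the increased share climbs from 6.80% to 25.4% while the median goes from -0.20 to 0.35.

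Base composition went with the direction of change in both classes. Among distal regions with under 40% GC, 36.9% increased and 3.04% decreased, and among those with 60% GC or more, 0.77% increased and 23.2% decreased. Start-site regions showed the same gradient, from 36.5% increased and 3.0% decreased under 40% GC to 1.90% and 25.5% at 60% or more. Between 45% and 50% GC the start-site shares were 8.73% increased and 6.29% decreased, and the distal shares 13.6% and 9.82%. When the concentration difference was centred within 10 classes of GC content, the start-site median turned from -0.22 to 0.11, the distal median turned from 0.09 to -0.05, and the number of decreased start-site regions fell to 1569. The medians of both classes thus changed sign, while increases made up 43.4% of start-site calls and 64.8% of distal calls after centring. Only the concentration difference was centred, while the adjusted p and direction of the fit were not. The shares of calls therefore cannot show whether the contrast between classes outlasts an adjustment for GC content. The part of amplification or sequencing in the GC gradient was not tested.

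**Figure D3:**
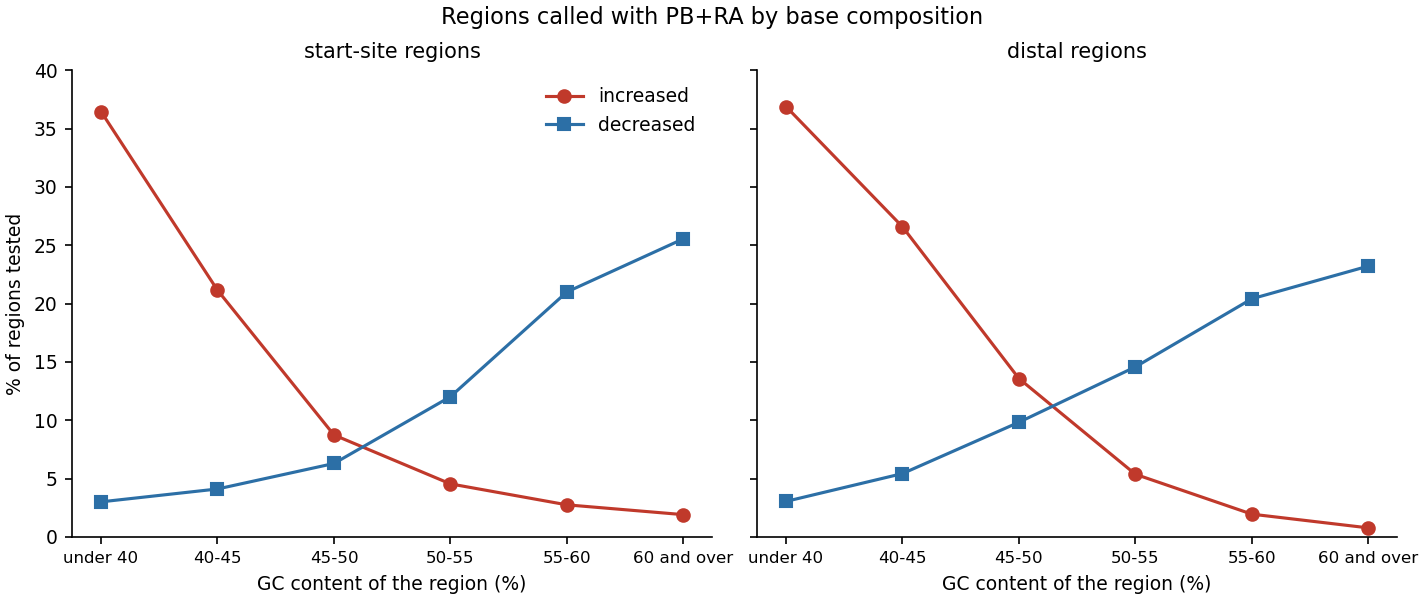
Share of start-site regions (left) and distal regions (right) that were called increased (red circles) or decreased (blue squares) in PB+RA, by the GC content of the region. In both panels the increased share falls from over 36% to under 2% and the decreased share climbs from about 3% to over 23%.

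Occupancy, the number of libraries with a peak in a region, showed where peaks were called in one group alone. A region without a called peak can still carry signal, as the DMSO concentration of 5.55 at CYP26A1 shows. Of the 92108 regions, 5214 (5.66%) had a peak in all 4 PB+RA libraries and in no DMSO library, and 1007 (1.09%) had the opposite pattern. Both counts depend on DMSO replicate 3, which held the fewest peaks, and they were not made without it. With at least 3 libraries of a group against at most 1 of the other, the counts were 12404 and 6889. Of distal regions, 4935 (6.84%) had peaks in PB+RA alone and 901 (1.25%) in DMSO alone. Of start-site regions the counts were 278 (1.40%) and 106 (0.53%). Start-site regions were mostly present in all 8 libraries (12729, 64.0%), as were 16747 distal regions (23.2%). When only peaks with a −log10 q of at least 5 were kept, 1347 regions had peaks in PB+RA alone and 547 in DMSO alone.

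The largest start-site increases were at GJA5, CYP26A1, NREP, CYP26B1 and AIM2. GJA5, the connexin of large arteries and atrial muscle, led with a concentration of 4.16 in DMSO and 9.88 in PB+RA (chr1:147241076-147246188, its centre in an intron of GJA5). No DMSO library had a peak there, and the enrichment in PB+RA replicates 1 to 4 was 14.3, 8.28, 11.4 and 7.30. CYP26A1, which hydroxylates retinoic acid, followed (chr10:94827560-94840735, 5.55 against 11.2). It had no peak in any DMSO library and enrichments of 13.8, 9.90, 12.3 and 11.3 in PB+RA. NREP, a regulator of neuronal process growth, had concentrations of 4.34 and 9.22, and 12 of its 21 tested regions increased with none decreased. CYP26B1, a further retinoic acid hydroxylase, rose from 3.48 to 8.01, and AIM2, a sensor of cytosolic DNA, from 2.75 to 7.16. All 5 regions had a peak in each PB+RA library and in no DMSO library, so the groups could not overlap. The DMSO value of such a region is the set value of 1, and it passed the filter through PB+RA libraries alone, so its levels are given without a fitted fold.

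The largest start-site decreases were at NXPH2, HS3ST3A1, SEMA3F, DLK1 and ITPR3. NXPH2 encodes a neurexin ligand, and its region (chr2:139535964-139538685) had enrichments of 3.05, 3.27, 8.24 and 7.88 in DMSO, no peak in 3 PB+RA libraries and 1.30 in PB+RA replicate 4. HS3ST3A1, a heparan sulfate sulfotransferase, was even across DMSO libraries, at 9.26 ± 0.44 (SD, n = 4), and lay at 1.29 ± 0.36 in PB+RA (fitted difference -2.87 ± 0.23, adjusted p = 1.2e-07). SEMA3F, a secreted axon guidance cue, had a concentration of 9.57 in DMSO and 6.45 in PB+RA. DLK1, a Notch-related protein of immature cells, kept a peak in all 8 libraries over 33492 bases of chromosome 14 but its enrichment was 5.41, 8.53, 4.14 and 7.85 in DMSO and 1.15, 1.16, 1.33 and 1.47 in PB+RA. ITPR3, a calcium release channel, had concentrations of 6.99 and 4.0. At none of the 5 did a PB+RA library reach the lowest DMSO library. They were chosen as the largest called decreases, and the share of all regions without overlap is not given here.

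Distal increases of the largest size lay near GNG12, CD177, POU2AF3, AHR and TEX101, each with a peak in every PB+RA library and in no DMSO library. The region near GNG12, a G protein gamma subunit, lay 62649 bases from a start site (chr1:68361799-68365007) and went from a concentration of 1.98 to 7.80, with enrichments of 6.92, 6.16, 4.38 and 3.85 in PB+RA. The regions near CD177, a neutrophil surface protein, and TEX101, a germ cell surface protein, both lie on chromosome 19 (43867807-43868306 and 43883561-43886073). Their concentrations were 0.00 against 5.69 and 2.60 against 7.91. All 11 regions assigned to CD177 increased, as did 5 of 7 tested regions assigned to TEX101. The region near POU2AF3 had concentrations of 4.47 and 9.86, and that within an intron of AHR, the aryl hydrocarbon receptor, 2.59 and 7.94.

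Distal decreases of the largest size were near LINGO1, CSPG4, ZNF275, MORF4L1 and FBXO44. LINGO1 restrains axon growth, and its region (chr15:78182690-78183204, 69448 bases away) went from a concentration of 4.62 to 0.00, with enrichments of 5.28, 2.71, 4.18 and 4.43 in DMSO and no peak in PB+RA. CSPG4 encodes the NG2 proteoglycan, and its intronic region had enrichments of 3.06, 3.78 and 3.26 in DMSO replicates 1, 2 and 4, and no peak in DMSO replicate 3 or in PB+RA. This region passed the filter through DMSO libraries alone, so no p-value is given for it. Its call was lost without DMSO replicate 2, with the highest peak and with no filter on regions. The regions near ZNF275, MORF4L1 and FBXO44 had concentration differences of -3.42, -3.40 and -3.29, with a peak in every DMSO library and none in PB+RA.

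Some genes gained or lost acetylation over many regions. DLG2, a scaffold of the postsynaptic density, had 52 increased and no decreased regions among 87 tested, and its region of largest difference (chr11:84019667-84034299) went from an enrichment of 1.08 ± 0.10 to 8.54 ± 1.51 (SD, n = 4 each). AUTS2, a neurodevelopmental gene, had 31 increased and 3 decreased of 73. CTNNA2, the neuronal alpha catenin, had 20 increased and none decreased of 38. Its region of largest difference had a peak in 3 PB+RA libraries and in no DMSO library. That region passed the filter through PB+RA libraries alone, so no p-value is given for it. Its call was lost without each of DMSO replicates 1 to 4 and PB+RA replicates 1, 3 and 4. The call was also lost with quantile normalization, the highest peak and no filter on regions. In the other direction MAD1L1, a spindle checkpoint protein, had 21 decreased of 35, GLI2, a Hedgehog transcription factor, 19 of 26, and LINGO1 19 of 41, with no increased region at any of these 3. The largest decrease at GLI2 covered a start site, at 7.89, 10.6, 12.3 and 10.7 in DMSO and 1.96, 1.76, 1.59 and 2.51 in PB+RA. Long genes hold more regions, and at least 1 increased region was found for 29.4% of 15897 genes and at least 1 decreased region for 25.7%.

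**Figure D4:**
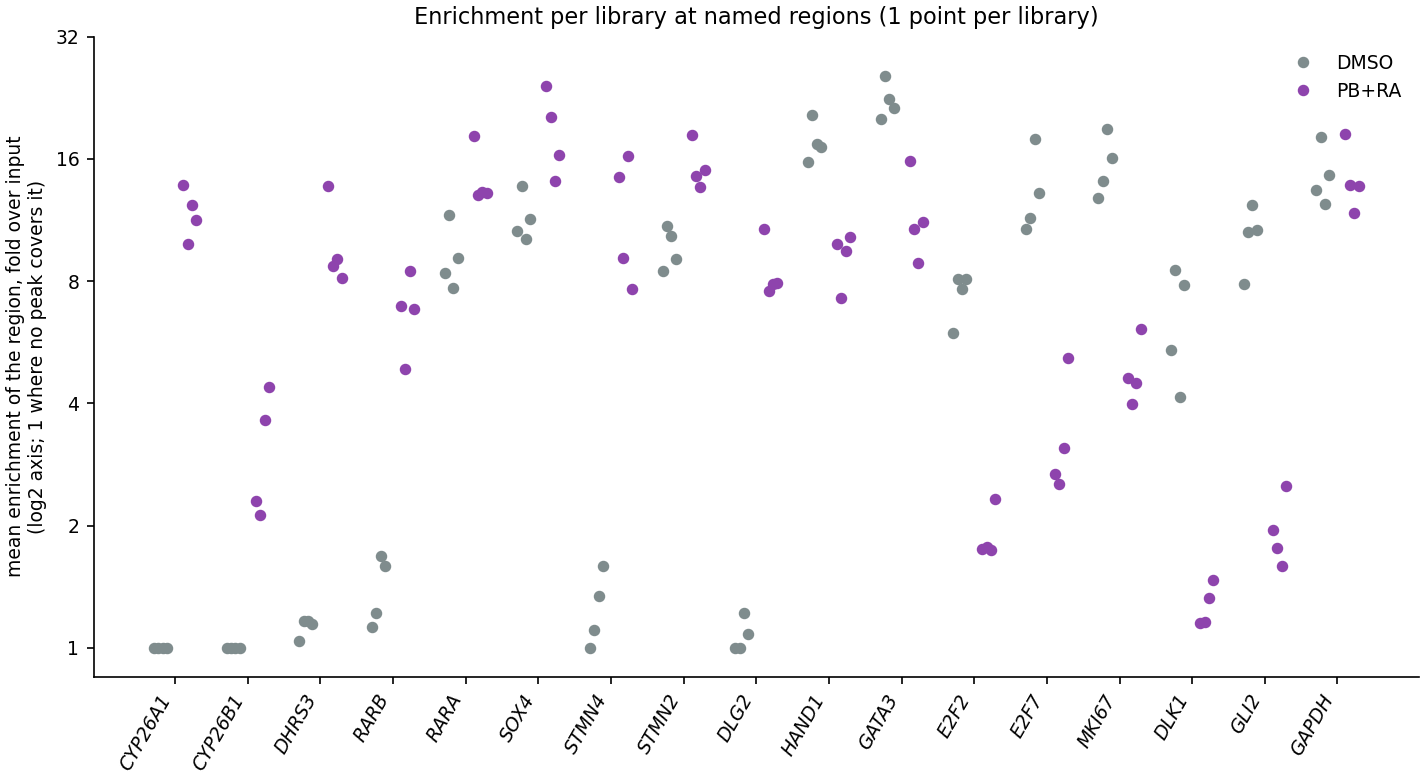
Mean enrichment over input (log2 axis) of 17 named regions in each of the 4 DMSO (grey) and 4 PB+RA (purple) libraries, where 1 stands for a region without a peak. Retinoid genes at the left have PB+RA libraries above all DMSO libraries, HAND1, GATA3 and the cell cycle genes have them below, and GAPDH overlaps.

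More retinoid handling genes had an increased region than a decreased one. Of 20 measured list members, 12 had an increased region and 4 a decreased region, where 29.4% and 25.7% of all genes did, and 8 of 18 with a start-site region had an increased one, where 9.38% of 14549 genes did. By region, 24.1% increased and 18.8% decreased, both above the 14.7% and 11.3% over the regions of all genes. The median concentration difference of their 112 regions was 0.20, against -0.08 over the regions of all genes. DHRS3, the retinal reductase, had a start-site region of 20112 bases (chr1:12650126-12670237) whose enrichment was 1.04, 1.16, 1.16 and 1.14 in DMSO and 13.7, 8.74, 9.08 and 8.13 in PB+RA (fitted difference 3.14 ± 0.20, adjusted p = 9.5e-09). At RARB, the receptor gene that retinoic acid itself induces, the region with the DR5 promoter (chr3:25465369-25477765) went from 1.13, 1.22, 1.68 and 1.59 to 6.96, 4.86, 8.47 and 6.83. A further, wider start-site region of RARB (chr3:25486292-25500813) was not called, at 3.03 ± 0.24 and 3.58 ± 0.68, so the change was uneven along the gene. Further members with an increased region included CYP26C1, RDH10, ALDH1A2, CRABP2, TTR, RARA and NRIP1. Decreased regions were found at RDH13, ALDH1A3, TGM2 and RXRA, the common RXR partner, where 14 of 22 regions decreased and none increased.

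The retino-sympathetic circuit, the set of retinoid-induced regulators that the study names, had an increased region at each of its 4 genes, RARA, RARB, SOX4 and MEIS1. The study described this set in these same samples, so its direction is no independent evidence. Over all genes, 29.4% had an increased region, and a gene with many regions has more chances of one. Of 36 regions in the circuit, 15 (41.7%) increased and 1 (2.78%) decreased, against 14.7% and 11.3% over the regions of all genes. Their median concentration difference was 0.89. RARA encodes a receptor for retinoic acid, and its start-site region of 58834 bases had enrichments of 8.37, 11.6, 7.72 and 9.14 in DMSO and 18.2, 13.0, 13.3 and 13.2 in PB+RA, without overlap. The call (adjusted p = 0.0239) was lost without DMSO replicate 1 (adjusted p = 0.0534) or 4 (0.0918). SOX4, a factor of neuronal maturation, had 10.6, 13.7, 10.2 and 11.4 against 24.2, 20.3, 14.1 and 16.3. Its call (adjusted p = 0.0306) was lost without any of DMSO replicates 1, 2 and 4 or PB+RA replicates 1, 2 and 4 (0.0517 to 0.109), and the difference turned to -0.42 when the highest peak was used in place of the mean (0.111). The MEIS1 start-site region overlapped between groups and was not called (fitted difference 0.60 ± 0.25, adjusted p = 0.0793; 0.76 and 0.0172 without DMSO replicate 3). It was called with quantile normalization (0.66, adjusted p = 0.00827) and with peaks of −log10 q of at least 5 (0.69, adjusted p = 0.0114).

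Genes of the adrenergic circuit, the factors that hold these cells in their sympathetic state, decreased more often than they increased. Of 20 genes, 13 had a decreased and 8 an increased region, 5 of them both, and at start sites 7 of 19 decreased and 1 increased. Over all genes the shares were 25.7% with a decreased and 29.4% with an increased region, and 17.5% and 9.38% at start sites. By region, 9.70% increased and 21.5% decreased, against 14.7% and 11.3% over the regions of all genes. The median concentration difference of the 237 adrenergic circuit regions was -0.51. HAND1 went from 17.7 ± 2.02 to 9.23 ± 1.34 and GATA3 from 22.4 ± 2.36 to 11.7 ± 2.96 (SD, n = 4), and both were called. With the highest peak in place of the mean the HAND1 call was lost (-0.17, adjusted p = 0.350). HAND2 overlapped between groups, at 24.0 ± 2.78 and 26.8 ± 3.67 (adjusted p = 0.482). Distal regions went both ways, with DACH1 increased at 12 of its 25 tested regions and LMO1 decreased at 9 of 14. The nearest region assigned to MYCN lay 18462 bases from a start site and was not called (adjusted p = 0.347). All 10 adrenergic neuroblastoma markers, which define the labelled type, had tested regions, with an increased one at 4 and a decreased one at 6.

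Cell cycle genes lost start-site acetylation. Of 48 E2F target and cell cycle genes, 36 had a decreased and 1 an increased start-site region, where 17.5% and 9.38% of all genes did, and the median concentration difference at their start sites was -1.08, against -0.21 for all genes. E2F7, an atypical E2F, went from 10.7, 11.4, 17.9 and 13.2 in DMSO to 2.68, 2.53, 3.11 and 5.19 in PB+RA. E2F2 went from 5.97, 8.10, 7.64 and 8.12 to 1.75, 1.77, 1.75 and 2.32 (fitted difference -1.94 ± 0.20, adjusted p = 2.1e-06). MKI67, the proliferation marker Ki-67, went from 12.8, 14.1, 18.9 and 16.05 to 4.62, 3.99, 4.48 and 6.10. At none of the 3 did the groups overlap, but the share of all regions without overlap is not given here.

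Distal regions assigned to the same cell cycle genes could move the other way. Increases of 3.11, 2.92, 2.89 and 2.83 in concentration were called 50556 bases from E2F7, 47399 from MKI67, 67521 from CDK1 and 57831 from CENPE, each of which also had a decreased region. The nearest gene need not be the one such a region acts on. G1 regulators, the cyclins D, their kinases and their inhibitors, had a decreased region at 6 of 15 genes and an increased one at 2, where 25.7% and 29.4% of all genes did. The start-site region of CCND1 was not called, at 16.8 ± 3.07 and 14.8 ± 3.52 (SD, n = 4), nor was that of CDKN1A, the inhibitor p21, at 3.67 ± 1.62 and 4.68 ± 1.25.

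Neuronal gene lists held both increases and decreases. Axon and neurite genes had an increased region at 25 of 37 and a decreased one at 18, 15 of them both, where 29.4% and 25.7% of all genes did. By region, 22.9% increased and 7.30% decreased, against 14.7% and 11.3% over the regions of all genes. The median concentration difference of the 493 axon and neurite regions was 0.25. After centring on GC content that median was -0.12. STMN4, a neuronal regulator of microtubules, went from 1.00, 1.11, 1.34 and 1.59 to 14.4, 9.14, 16.2 and 7.67 at its start site (fitted difference 3.23 ± 0.24, adjusted p = 5.8e-08). DPYSL3, a growth cone protein, went from 3.20 ± 0.97 to 5.94 ± 1.04 and had 12 increased regions of 18 tested, though the start-site call was lost with the highest peak (adjusted p = 0.556). STMN2 was called at its start site, 9.72 ± 1.14 against 15.4 ± 2.02 (adjusted p = 0.0280), a call lost without any of DMSO replicates 1, 2 and 4 or PB+RA replicates 2 and 4 (0.0545 to 0.113) and with the highest peak (0.0638).

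Vesicle, transmitter and channel genes are read against the same 29.4% of all genes with an increased and 25.7% with a decreased region. A gene with many regions has more chances of either. By region, 14.7% increased and 11.3% decreased over all genes. The shares were 15.9% and 3.66% for synaptic vesicle, 24% and 6.86% for dense-core vesicle and 30.5% and 7.03% for postsynaptic genes. They were 18.3% and 11.01% for ion channel, 20.6% and 4.41% for catecholamine and 25.4% and 2.82% for cholinergic genes. Synaptic vesicle genes had an increased region at 13 of 32 and a decreased one at 6, and SNAP25, a fusion protein of the release machinery, had a distal region that went from 1.05, 1.33, 1.15 and 1.23 to 6.33, 5.51, 5.23 and 3.94. Dense-core vesicle and neuropeptide genes had an increased region at 13 of 21 and a decreased one at 7. CHGB, a granin of these vesicles, was not called at its start site (5.47 ± 1.36 against 7.07 ± 0.41, adjusted p = 0.141; 0.0437 without DMSO replicate 3). Postsynaptic genes had a decreased region at 12 and an increased one at 8 of 22, with a median concentration difference of 0.63 over 256 regions, of which 87 belong to DLG2. Ion channel genes had an increased region at 16 and a decreased one at 11 of 28, with a median of -0.14. Catecholamine genes had an increased region at 6 and a decreased one at 3 of 11, and cholinergic genes at 3 and 2 of 8. SLC5A7, the choline transporter, had a distal region with a difference of 5.16, no peak in DMSO and enrichments of 4.39, 2.92, 3.11 and 2.86 in PB+RA. TH, the rate-limiting enzyme of catecholamine synthesis, was called decreased at its start site, 10.3 ± 1.16 against 6.26 ± 1.19 (adjusted p = 0.0273), a call lost without any of DMSO replicates 1 and 2 or PB+RA replicates 1 and 3 (0.0590 to 0.0746) and with the highest peak (0.269).

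Receptor tyrosine kinase genes were among the lists with most decreases, with a decreased region at 12 of 17 genes, an increased one at 3, where 25.7% and 29.4% of all genes did. Their median concentration difference at start sites was -1.02, against -0.21 for all genes. FGFR2 had a start-site difference of -2.27, with enrichments of 1.93, 3.05, 5.50 and 5.91 in DMSO, no peak in PB+RA replicates 1 to 3 and 2.35 in replicate 4. ALK had 6 decreased regions of 21 tested. RET, the GDNF receptor, was called increased (6.39 ± 1.45 against 9.77 ± 1.00, adjusted p = 0.0233), but the call was lost without DMSO replicate 4 (0.0683) and the difference turned to -0.54 with the highest peak in place of the mean (0.0672). ERBB4 had a distal region with enrichments of 1.00, 1.00, 1.00 and 1.21 in DMSO and 4.58, 4.83, 5.52 and 5.04 in PB+RA.

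The remaining lists are given beside the 29.4% of all genes with an increased and 25.7% with a decreased region, and several lie near those shares. Here too, a gene with many regions has more chances of either. Extracellular matrix and junction genes had an increased region at 16 and a decreased one at 8 of 29, and mesenchymal genes at 11 and 10 of 26. Neuronal transcription factors divided almost evenly, with increases at 8 and decreases at 7 of 27. Sarcomere genes had a decreased region at 6 and an increased one at 3 of 15, and neural crest and Schwann genes at 2 and 5 of 16. Among markers of cells that the culture should not hold, 2 of 9 measured immune genes and 2 of 8 endothelial genes had an increased region, and none and 4 had a decreased one. Among 17 housekeeping genes, 3 had an increased and 6 a decreased region. The start-site regions of ACTB (adjusted p = 0.149) and GAPDH (0.904) were not called.

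**Figure D5:**
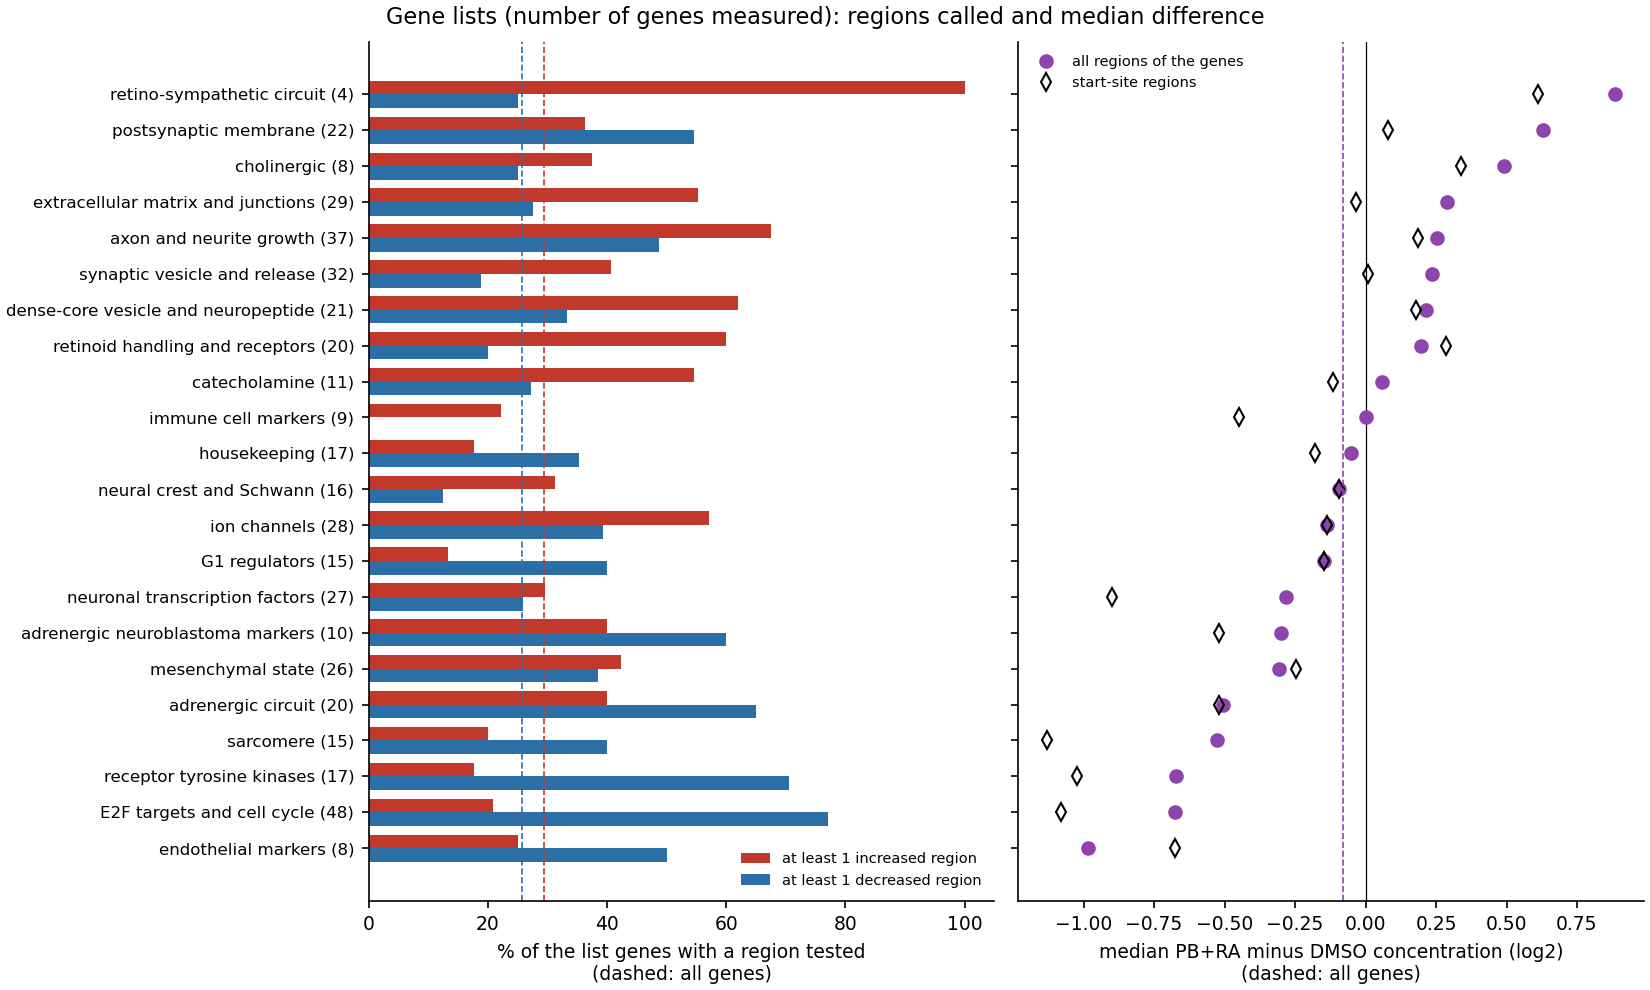
Left, share of the measured genes of 22 lists with at least 1 increased (red) or at least 1 decreased (blue) region, with dashed lines for all genes (29.4% and 25.7%). Right, median concentration difference (PB+RA minus DMSO, log2) over all regions of the list (purple) and over its start-site regions (open), with a dashed line at -0.08 for all genes; start-site medians are lowest for sarcomere, cell cycle and receptor tyrosine kinase genes, at -1.13, -1.08 and -1.02.

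The letters of 14 short motifs were searched on both strands in the 500 bases at the centre of each region. AP-1 letters (TGANTCA), bound by FOS and JUN factors, were in 27.6% of increased distal regions, 13.9% of decreased ones and 20.1% of all distal regions. Within classes of GC content the AP-1 share of increased regions was above that of decreased regions in each of 5 classes, from 26.8% against 15.7% under 40% GC to 20.8% against 10.5% at 55% or more. GATA letters (AGATAA) were in 42.6% of increased and 23.3% of decreased distal regions, but within the class under 40% GC the shares were 51.6% and 48.7%. The E-box CAGCTG, bound by basic helix-loop-helix factors, was in 21.8% of increased and 34.3% of decreased distal regions, and within that class in 15.3% of both. DR5 letters were in 1.45% of increased and 1.41% of decreased distal regions, and in 1.54% and 0.89% at start sites. In each of the 5 classes the GATA and CAGCTG shares of increased and decreased regions differed by less than 5 percentage points. Windows of increased distal regions had a median GC content of 39.8% and those of decreased ones 52.2%.

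The comparisons of PB and of RA with DMSO share the DMSO libraries with this one, so their values are set side by side without a test. At CYP26A1 the concentration difference was 5.65 with PB+RA, 0.65 with PB and 4.60 with RA, and at DHRS3 it was 4.40, 0.07 and 4.33. At E2F7 it was -2.45, -1.85 and -0.68, and at MKI67 -1.86, -1.58 and -0.59. STMN4 had 3.92, 2.16 and 2.26. GATA3 had -0.89, -0.26 and -1.35, and HAND1 had -1.10, -0.18 and -1.68. Over the regions of the cell cycle list the medians were -0.68, -0.44 and -0.36, and over those of the retinoid list 0.20, -0.24 and 0.51.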

How the data were processed

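H3K27ac ChIP-seq files of 4 DMSO and 4 PB+RA libraries were used. The authors used fastp 0.12.4 for trimming, Bowtie2 2.4.4 for alignment to hg19, MACS2 2.2.7.1 for broad peaks of each library over input, and DiffBind 3.4 for the comparison tables, per the submitters' processing notes. The study's methods list another version of Bowtie2. Each deposited peak carries a fold enrichment, the authors' ratio of ChIP over input, and the authors' −log10 q, which was used as a filter in an alternative. The deposited comparison tables hold the authors' normalised mean log2 concentration of each group, which is the same for DMSO in all 3 tables. They also hold the authors' own fold changes, p-values and false discovery rates, which were not used. Peak lists of the PB and RA libraries were not used.

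Regions were annotated with GENCODE release 44 lifted to GRCh37 and assigned to genes within 100 kb of a protein-coding start site. Log2 enrichments per library were scaled to equal medians over regions with a peak in all 8 libraries, then fitted with limma 3.58.1 (trend and robust variance, R 4.3.3) over 82501 regions. For measures of whole libraries, all 70 arrangements of the 8 libraries were enumerated in an exact permutation test, two-sided. Concentrations are group means, so they add size but no replicate error. Averaging over the bases of a region makes a value depend on how far a peak reaches as well as on its height. On simulated data 200 regions carried a log2 change of 2 or 1 in size. Of those with a change of 2, 67% were recovered, and of those with a change of 1, 13%, with 2 false calls. The changed regions had a mean DMSO log2 enrichment over 1 and were far fewer than the calls made here. These rates therefore do not carry over to the calls.

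Titles gave each library its group and number. The replicates are biological per the study's methods, and p-values measure the spread between these cultures. Named regions were the 5 largest called differences per class and direction, the largest at the 3 genes with most regions in each direction, and the region nearest the start site of 26 chosen genes, taking the widest where several were equally near. In each gene list, the 4 members with the largest called difference could also be named. The 22 gene lists and the members were chosen with earlier results of these data known. Some chosen genes are not reported here. Alternatives were no scaling, quantile normalization, the highest peak, a stricter peak filter, other region filters, fold minima, start-site windows and GC centring, a replicate block and leaving out each library.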

Additional observations from a re-analysis of the deposited data

Results flagged for a closer look

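In groups of 4 libraries, 10 of 111 groups had a highest or lowest library set apart from the other 3 by Dixon's test, where about 1 in 20 would be by chance. PB+RA replicate 1 had the widest peaks, with a median width of 1078 bases over all peaks and 917 over distal peaks. It also had the highest enrichment at DLG2 (10.8) and at RARA (18.2) in its group. PB+RA replicate 2 was lowest at MEIS1 (13.0) and had no peak in the CTNNA2 region, where its value is 1. PB+RA replicate 4 was highest at E2F2 (2.32). Among DMSO libraries, replicate 1 was lowest at DHRS3 (1.04), replicate 2 highest at TH (12.1), and replicate 3 had no peak in the CSPG4 region, where its value is 1. At DLG2, RARA, DHRS3, E2F2 and TH the groups did not overlap with these libraries included.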

How the results depend on the processing

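Limits come first from depth, which is unknown, so a missing peak cannot be told from a shallow library. The concentration difference that a call requires is the same in each setting except GC centring, so a call could be lost or gained between those settings but not turned. In order of regions increased, regions decreased, start-site increased, start-site decreased, distal increased and distal decreased, the reported counts were 14013, 8731, 1489, 2698, 12520 and 6031. The highest enrichment of any peak gave 8634, 3834, 664, 1525, 7968 and 2308, and peaks with a −log10 q of at least 5 gave 4143, 3239, 963, 1768, 3179 and 1471, with 26861 regions tested. Regions with a peak in all 8 libraries, 29485 in number, gave 4423, 4689, 857, 2032, 3564 and 2655. Quantile normalization gave increases as 52.5% of calls, against 61.6%. A fold minimum of 1 left 923 start-site increases, and GC centring left 1569 start-site decreases. Leaving out 1 library gave 5394 to 11345 decreased regions, 1594 to 2966 at start sites and 3799 to 8377 distal.

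Differences beyond 1 in concentration numbered 1347 up and 3215 down at start sites and 16872 and 11602 in distal regions. Of the regions whose higher concentration was at least the median of 5.62, the counts were 849, 2039, 8612 and 4459, with class medians of -0.18 and 0.24. GC centring gave 1113 down at start sites and 10755 up in distal regions, with medians of 0.11 and -0.047. Regions present in PB+RA alone numbered 1347 with the stricter peaks, 3474 where peaks had to cover 50% of the region and 12404 for at least 3 against at most 1 library, and those in DMSO alone 547, 1665 and 6889. The stricter peaks turned the difference in median enrichment to -0.32 (exact p = 0.229) and that in the share of start-site peaks to -6.27 percentage points (exact p = 0.0286). Leaving out 1 library moved the difference in peak number between -1043 and 8739, in 95th percentile enrichment between -1.81 and 0.41, in peaks of 12 kb or wider between -469 and -235, and in start-site enrichment between -0.73 and 0.78. With the highest peak, SOX4 turned to -0.42 (adjusted p = 0.111) and RET to -0.54 (0.0672). Over the alternatives for named regions, 668 values kept their call and direction, 44 lost the call, 4 gained one and 2 turned. The cause of these changes was not tested beyond the construction of each setting.

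Same-numbered libraries showed no clear common deviation, which cannot tell whether their cultures were grown together. Deviations of same-numbered libraries correlated at 0.0917, -0.0152, -0.100 and 0.126, and those of differently numbered libraries between -0.194 and 0.147. With a replicate block, 14763 regions increased and 10047 decreased, and the paired exact p for the distal GC content (-4.38 percentage points) was 0.125, the smallest that 4 pairs allow. The replicate block took the call from RARA, SOX4 and STMN2 (adjusted p 0.0595 to 0.0637), among the regions named here.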

Other observations

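Distal regions differed by chromosome in how often they increased. On chromosome 19 the share was 7.50% of those tested and on chromosome 22 it was 8.80%, while on chromosome 18 it was 29.2% and on chromosome X 26.5%. Decreases were called in 13.4%, 14.2%, 8.49% and 7.99% of the same sets. The median concentration difference of distal regions was -0.52 on chromosome 19 and 0.58 on chromosome X. Chromosomes differ in base composition, and its part in these shares was not tested. Against the run of chromosome 19, all 11 regions assigned to CD177 increased, the CD177 and TEX101 regions being chosen for the size of their difference.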
